A study of Mus musculus with 15 samples.

Results

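The genes described here are the 53 mouse genes, of 23866 with a symbol in the count table, that make, use and recycle glutathione or belong to the antioxidant response run by the transcription factor NRF2. They were picked by name, with earlier results of these data known: the glutathione transferases (Gst genes), the glutathione peroxidases other than Gpx4, the peroxiredoxins, the superoxide dismutases, and 16 named genes that include the NRF2 gene Nfe2l2, its inhibitor Keap1, and the enzymes of glutathione synthesis. Kidney RNA came from male C57BL/6 mice in 4 groups, and no genetic change is named for any of them. The olive oil group (3 libraries) had intraperitoneal injections of the vehicle for 6 weeks. The CCl4 group (4 libraries) had carbon tetrachloride, a solvent that liver enzymes turn into radicals, for 6 weeks. Replicates 3 and 4 of that group went on with a reduced dose for 4 more weeks. The EtOH group (4 libraries) had 6 weeks of olive oil and then 4 weeks of ethanol, and the CCl4+EtOH group (3 libraries) had 6 weeks of CCl4 and then 4 weeks of ethanol. In the titles of the CCl4+EtOH samples CCl4 is repeated before EtOH, and the sample sources mention it for the first 6 weeks only. No label names an olive oil control with 4 further weeks, so ethanol and those weeks cannot be told apart in a comparison with olive oil. Another olive oil sample was not analysed here. The series title places the work in acute kidney injury with alcoholic liver fibrosis.

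Glutathione is a small thiol peptide that cells hold at high concentration. Glutamate-cysteine ligase, made of the subunits Gclc and Gclm, takes the limiting step of its synthesis, peroxidases and transferases spend it on peroxides and foreign compounds, and glutathione reductase restores it. NRF2 is held back by Keap1, and when oxidants or electrophiles modify Keap1 it enters the nucleus, pairs with small MAF proteins and binds the antioxidant response element in front of many of these genes. In kidney, proximal tubule cells are known to be rich in glutathione enzymes and to secrete the plasma peroxidase Gpx3.

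The core of the antioxidant response element, TGACNNNGC, was looked for on both strands in the RefSeq promoter windows of build GRCm38.p6, which run from 250 bases before to 50 bases after each gene start. The counts themselves were made on mm9, so these positions belong to the promoters and not to the counts. Of the 53 genes, 47 had an entry, and Gsta4, Gstt2, Prdx6, Gsr, Gclc and Sod3 had none. A match stood in 10 of the 47 genes (21.3%), against 14% of all 27025 symbols, and by window in 17.5% of 57 against 12.4% of 32851. The following 9 are shown because they put the same core beside genes that later rose, fell or did not pass the test in CCl4+EtOH kidney. Capitals mark the core, each run is given 5′ to 3′ on the strand of the gene, and a core that reads GCNNNGTCA lies on the opposite strand.
Nfe2l2, chr2:75704875-75704913, minus strand: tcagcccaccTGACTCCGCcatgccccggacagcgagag
Gclm, chr3:122245403-122245451, plus strand: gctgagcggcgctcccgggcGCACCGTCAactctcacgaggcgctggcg
Gsta3, chr1:21240444-21240492, plus strand: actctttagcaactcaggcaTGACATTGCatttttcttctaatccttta
Gstm7, chr3:107931715-107931763, minus strand: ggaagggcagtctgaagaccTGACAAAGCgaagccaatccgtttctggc
Prdx1, chr4:116685446-116685494, plus strand: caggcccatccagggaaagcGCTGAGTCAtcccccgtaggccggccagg
Sod1, chr16:90220686-90220734, plus strand: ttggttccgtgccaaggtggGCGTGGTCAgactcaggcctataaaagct
Txnrd1, chr10:82859094-82859142, plus strand: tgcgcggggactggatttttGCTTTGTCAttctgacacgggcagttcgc
G6pdx, chrX:74428909-74428957, minus strand: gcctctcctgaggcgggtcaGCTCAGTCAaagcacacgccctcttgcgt
Gstm5, chr3:107895792-107895840, plus strand: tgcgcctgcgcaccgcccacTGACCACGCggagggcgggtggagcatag
The first base of the core lay at position -240 from the gene start in Nfe2l2, -134 in Gclm, -133 in Prdx1, -129 in Gstm7, -121 in Gsta3, -92 in Txnrd1, -57 in G6pdx, -56 in Sod1 and -42 in Gstm5. The core of Srxn1 lay past the gene start. The AP-1 site TGACTCA overlapped the core of Prdx1 and no other of the 10. Among genes with an entry, 1 of the 7 that rose in CCl4+EtOH against olive oil held the core, 6 of the 21 that fell, and 3 of the 16 that did not pass the test. Akr1b8, Cbr3 and Ephx1, which rose, were among the windows without a match.

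Library totals ran from 16.4 to 23.6 M counts. Of the 53 genes, 50 passed the filter on low counts. Gpx2 had 5 counts over all 14 libraries, Gpx5 had 3 and Gstt4 had 38, and these 3 were not tested. Values are CPM, counts scaled to a common library size. Changes are log2 fold changes ± SE from the edgeR quasi-likelihood test, and a gene is said to rise or fall where its p, adjusted over 16105 genes, is under 0.05. Libraries are named by group and replicate. CCl4+EtOH replicate 3 stood nearer to the other groups than replicates 1 and 2, and EtOH replicates 1 to 3 held adrenal gland transcripts, with adrenal cortex markers summing to 871, 800 and 1283 CPM against 10.8 to 36.3 CPM in the other 11 libraries. Markers of the labelled tissue were present, and none of the 14 proximal tubule markers or the 9 markers of the loop, distal tubule and collecting duct was at 0 in any group.

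**Figure D1:**
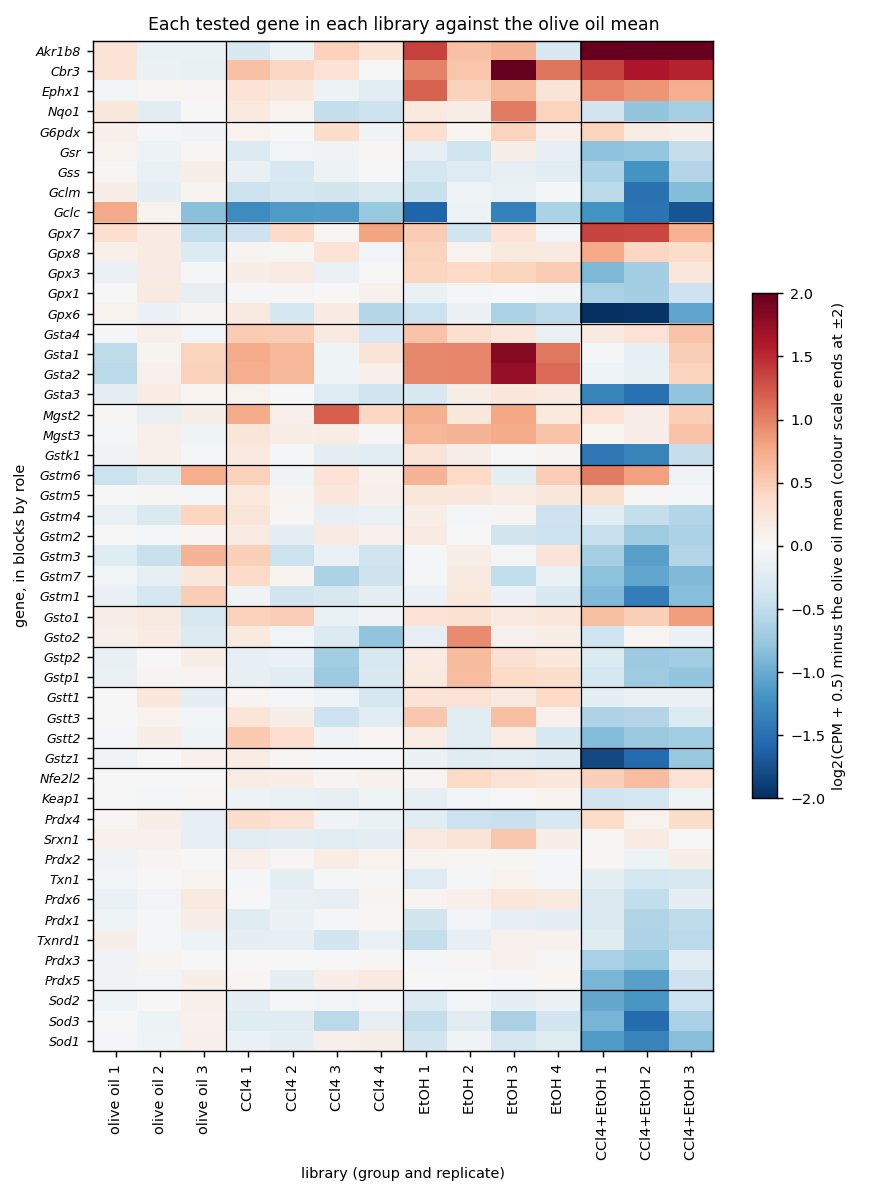
The 50 tested genes (rows, in blocks by role) in each of the 14 libraries (columns), coloured by log2(CPM + 0.5) minus the olive oil mean, with red for higher and blue for lower values. The 3 CCl4+EtOH columns hold most of the dark blue cells and the dark red cells of Akr1b8, and the EtOH columns are red for Gsta1, Gsta2 and Mgst3.

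In CCl4+EtOH kidney, 7 of the 53 genes rose against olive oil, 26 fell, 17 did not pass the test and 3 were not tested. Over all genes tested, 18.9% rose and 16.6% fell, while of the 50 tested here 14% rose and 52% fell. The median log2 change of the 50 was -0.46, beside 0.024 over all genes. The groups' libraries did not overlap for 8 of the 50 in the higher direction and for 28 in the lower one, where 22.9% and 20.8% of all genes tested had no overlap. Those that rose were Akr1b8, Cbr3, Gpx7, Ephx1, Gsto1, Gpx8 and Nfe2l2, while glutathione synthesis and all 3 superoxide dismutases fell.

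**Figure D2:**
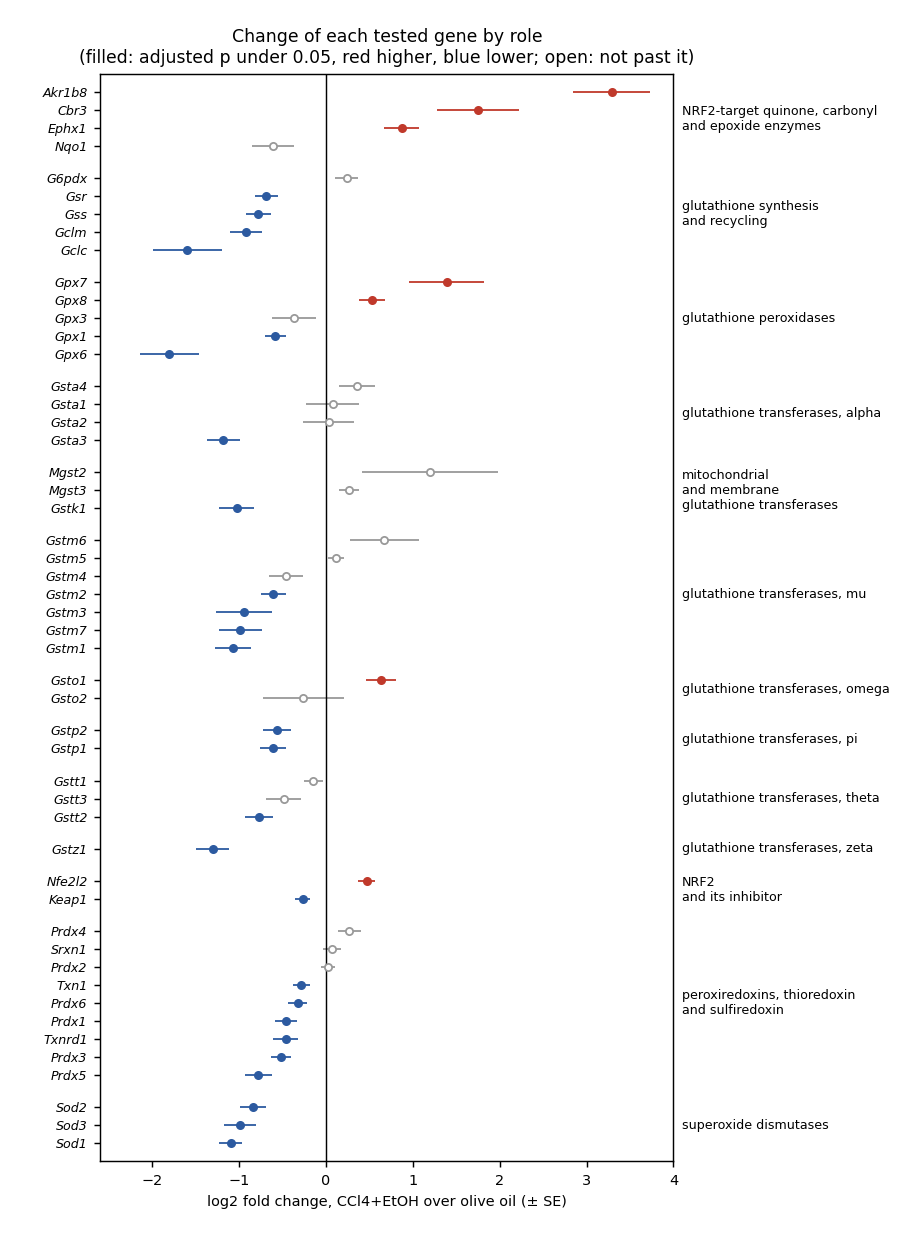
Log2 fold change of each tested gene in CCl4+EtOH over olive oil kidney (x axis, ± SE), grouped by role. The 26 blue points are genes that fell, the 7 red points genes that rose, and the 17 open points did not pass the test; Akr1b8 lies farthest right at 3.29 and Gpx6 farthest left at -1.80.

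The regulator and its inhibitor moved in opposite directions. Nfe2l2, which encodes NRF2, read 114, 112 and 113 CPM with olive oil, 125, 124, 117 and 119 with CCl4, 117, 149, 138 and 131 with EtOH, and 158, 173 and 138 with CCl4+EtOH. All 3 CCl4+EtOH libraries lay above every olive oil and CCl4 library and overlapped the EtOH libraries, and the CCl4 and EtOH libraries also lay above olive oil. The log2 change over olive oil was 0.47 ± 0.10 (adjusted p = 0.00258). Keap1, the adaptor that leads NRF2 to degradation, read 44.6, 43.5 and 45.5 CPM with olive oil, 41.7, 40.6, 39.5 and 41.8 with CCl4, 39.5, 42.7, 44.3 and 47.0 with EtOH, and 33.9, 34.9 and 42.0 with CCl4+EtOH. All 3 CCl4+EtOH values were below olive oil, and so were the CCl4 values. CCl4+EtOH replicate 3 lay inside the EtOH range and above every CCl4 library. Against CCl4 the change was -0.15 and did not pass. Against olive oil it was -0.27 ± 0.09 (adjusted p = 0.0288). The Keap1 call was lost with upper-quartile scaling (adjusted p = 0.0504), with only the compared groups in the fit (0.100), and without CCl4+EtOH replicate 2 (0.121) or replicate 1 (0.140). It was also lost without any single olive oil library, at 0.0645, 0.0538 and 0.0788 for replicates 1 to 3.

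The enzymes that NRF2 is known to induce did not move as one. Akr1b8, an aldo-keto reductase that clears reactive aldehydes, read 4.99, 3.62 and 3.63 CPM with olive oil, 3.16, 3.75, 5.73 and 4.99 with CCl4, 11.2, 6.33, 6.77 and 3.17 with EtOH, and 61.5, 37.4 and 20.3 with CCl4+EtOH. Every CCl4+EtOH library exceeded every other library, and replicate 3 was the lowest of the 3. Its change over olive oil was 3.29 ± 0.44 (adjusted p = 0.000309) and over EtOH 2.52 ± 0.38 (adjusted p = 0.000585). Cbr3, a carbonyl reductase, read 2.05, 1.46 and 1.41 CPM with olive oil, 2.69, 2.32, 2.07 and 1.64 with CCl4, 3.72, 2.62, 12.4 and 3.93 with EtOH, and 4.89, 6.01 and 5.66 with CCl4+EtOH. Its CCl4+EtOH libraries lay above olive oil and CCl4 and within the EtOH range, where replicate 3 stood high. The change over olive oil was 1.75 ± 0.47 (adjusted p = 0.0115).

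Ephx1, the microsomal epoxide hydrolase, read 45.2, 48.1 and 47.7 CPM with olive oil, 57.1, 54.6, 43.7 and 39.9 with CCl4, 108, 65.1, 73.9 and 56.0 with EtOH, and 92.7, 87.4 and 77.9 with CCl4+EtOH. EtOH and CCl4+EtOH libraries both lay above olive oil and overlapped each other. The change with CCl4+EtOH was 0.87 ± 0.20 (adjusted p = 0.0046), while that with EtOH was 0.69 ± 0.19 (adjusted p = 0.148) and did not pass. Nqo1, the quinone reductase commonly used as a readout of NRF2, falls outside the naming rule and was added after its values were seen. It read 96.9, 71.9 and 82.8 CPM with olive oil, 95.3, 87.7, 59.4 and 61.5 with CCl4, 95.8, 91.5, 172 and 113 with EtOH, and 63.8, 48.2 and 52.5 with CCl4+EtOH. Levels with CCl4+EtOH lay below the olive oil and EtOH libraries and overlapped the CCl4 libraries. The change did not pass against olive oil, at -0.61 ± 0.24 (adjusted p = 0.0643), and did against EtOH, at -1.11 ± 0.23 (adjusted p = 0.00322). That call was lost without EtOH replicates 1 to 3 (-1.06, adjusted p = 0.0596) and with the adrenal marker level in the fit (-1.04, adjusted p = 0.072).

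**Figure D3:**
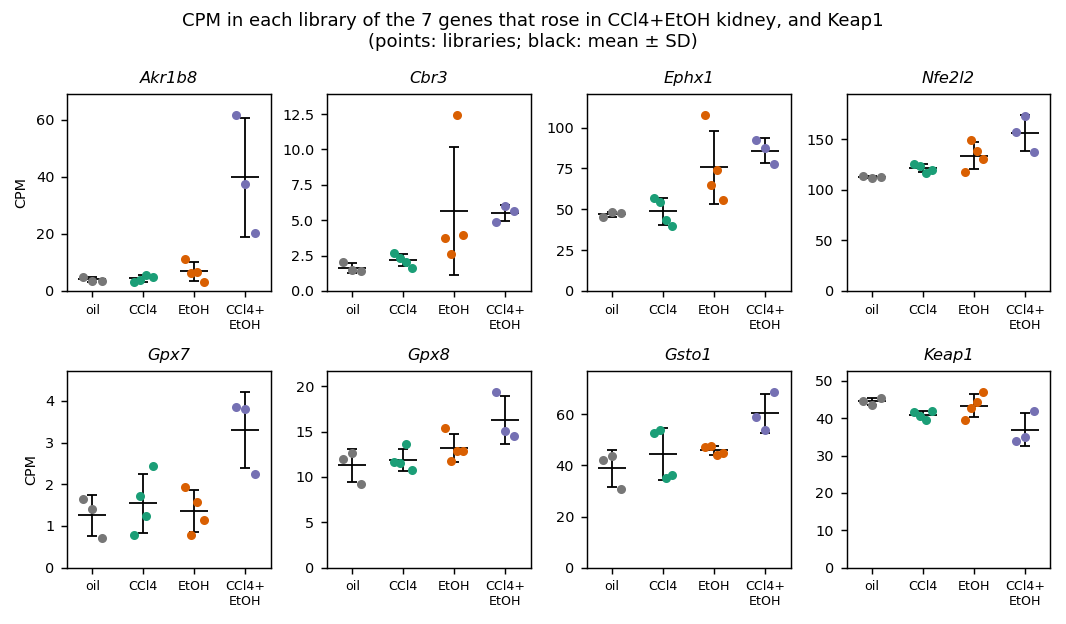
CPM (y axis, from 0) in each library by group (x axis, oil for olive oil) for the 7 genes that rose in CCl4+EtOH against olive oil, and for Keap1; points are libraries and black marks are mean ± SD. For each of the 7, the 3 CCl4+EtOH points lie above the 3 olive oil points, and for Keap1 they lie below them.

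Glutathione synthesis and recycling fell in 4 of 5 genes. Gclc, the catalytic subunit of glutamate-cysteine ligase, read 1147, 715 and 380.2 CPM with olive oil, 283, 310.1, 312 and 401 with CCl4, 224, 631, 267 and 439 with EtOH, and 294, 243 and 204 with CCl4+EtOH. The olive oil libraries themselves spread widely, and the CCl4+EtOH libraries lay below all 3 but overlapped CCl4 and EtOH. The change was -1.60 ± 0.40 (adjusted p = 0.0082) against olive oil, and against CCl4 it was -0.40 ± 0.37 (adjusted p = 0.423) and did not pass. Gclm, the modifier subunit, read 336, 272.4 and 319.7 CPM with olive oil, 229.7, 240.5, 240.1 and 252 with CCl4, 226, 292, 281 and 303 with EtOH, and 212, 109.8 and 169.5 with CCl4+EtOH. No other library was as low as those of CCl4+EtOH, and the CCl4 libraries lay below olive oil without passing the test. The change was -0.92 ± 0.18 (adjusted p = 0.00214).

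Gss, glutathione synthetase, which adds the last amino acid, read 412, 369 and 442 CPM with olive oil, 367, 329, 381 and 402 with CCl4, 319, 341, 363 and 349 with EtOH, and 263.4, 178 and 272.1 with CCl4+EtOH. All CCl4+EtOH libraries lay below all others, with a change of -0.78 ± 0.14 (adjusted p = 0.00136). Gsr, the reductase that restores glutathione, fell by 0.68 ± 0.13 (adjusted p = 0.00154), from means of 203 ± 13.0 (SD, n = 3) with olive oil to 126 ± 16.5 CPM (SD, n = 3) with CCl4+EtOH. G6pdx, which supplies the NADPH that the reductase uses, did not pass at 0.24 ± 0.13 (adjusted p = 0.18).

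The 3 superoxide dismutases, which turn superoxide into hydrogen peroxide, all fell. Sod1, the cytosolic copper-zinc enzyme, read 334, 320.3 and 367 CPM with olive oil, 309, 301, 366 and 370.0 with CCl4, 262.5, 323, 268 and 286 with EtOH, and 155, 135 and 188 with CCl4+EtOH. All 11 other libraries lay above the 3 of CCl4+EtOH, and the change was -1.10 ± 0.13 (adjusted p = 0.000144). Sod2, the manganese enzyme of mitochondria, read 335, 351 and 379 CPM with olive oil, 314, 347, 343 and 349.7 with CCl4, 294, 343, 311 and 328 with EtOH, and 175, 158 and 261.9 with CCl4+EtOH. Again no CCl4+EtOH library reached another group, although replicate 3 came nearest, and the change was -0.84 ± 0.15 (adjusted p = 0.00115). Sod3, the secreted enzyme, read 433, 399.7 and 455 CPM with olive oil, 360.5, 363, 295 and 382 with CCl4, 308, 369.5, 273.6 and 330.1 with EtOH, and 224, 147 and 274.6 with CCl4+EtOH. CCl4+EtOH replicate 3 fell just inside the EtOH range, the CCl4 and EtOH libraries lay below olive oil, and the change of CCl4+EtOH was -0.99 ± 0.18 (adjusted p = 0.00138).

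Among the 7 peroxidases, 2 rose, 2 fell, Gpx3 did not pass and Gpx2 and Gpx5 were not tested. The risers were both residents of the endoplasmic reticulum. Gpx7 read 1.64, 1.41 and 0.705 CPM with olive oil, 0.777, 1.73, 1.24 and 2.43 with CCl4, 1.93, 0.791, 1.57 and 1.14 with EtOH, and 3.85, 3.79 and 2.25 with CCl4+EtOH. Its levels were low, and the CCl4+EtOH libraries lay above olive oil and EtOH while replicate 3 overlapped CCl4. The change was 1.39 ± 0.43 (adjusted p = 0.0221). Gpx8 read 12.0, 12.6 and 9.21 CPM with olive oil, 11.6, 11.5, 13.6 and 10.8 with CCl4, 15.4, 11.8, 12.9 and 12.8 with EtOH, and 19.3, 15.1 and 14.6 with CCl4+EtOH. Levels with CCl4+EtOH exceeded olive oil and CCl4 and overlapped EtOH, with a change of 0.53 ± 0.15 (adjusted p = 0.0156).

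Both peroxidase calls depended on single libraries, since without olive oil replicate 3 the adjusted p was 0.0899 for Gpx7 and 0.0738 for Gpx8. Without CCl4+EtOH replicate 1 these were 0.0688 and 0.0783, without CCl4+EtOH replicate 2 Gpx7 was at 0.0685, and with only the compared groups in the fit Gpx8 was at 0.0725. Gpx6, a relative of the secreted peroxidase, read 56.1, 49.2 and 55.3 CPM with olive oil, 60.4, 42.0, 59.7 and 36.0 with CCl4, 39.5, 49.5, 34.1 and 37.2 with EtOH, and 7.27, 13.3 and 25.5 with CCl4+EtOH. The CCl4+EtOH libraries lay below all others, with replicate 3 the highest of them. The change was -1.80 ± 0.34 (adjusted p = 0.00176). Gpx1, the abundant cytosolic peroxidase, read 1261, 1423 and 1123 CPM with olive oil, 1244, 1289, 1250 and 1341 with CCl4, 1158, 1238, 1259 and 1229 with EtOH, and 807, 790.0 and 947 with CCl4+EtOH. No CCl4+EtOH library overlapped another group, and the change was -0.58 ± 0.12 (adjusted p = 0.00253), with an adjusted p of 0.0577 when only the compared groups were fitted.

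The cytosolic glutathione transferases, enzymes that join glutathione to electrophiles, fell in 9 of the 20 genes, rose in 1 and did not pass in 9, with Gstt4 not tested. The zeta enzyme Gstz1, which also isomerises maleylacetoacetate in tyrosine breakdown, read 366, 380.5 and 406 CPM with olive oil, 425, 391.9, 377 and 377 with CCl4, 353, 324, 329.8 and 317 with EtOH, and 109.6, 131 and 226 with CCl4+EtOH. CCl4+EtOH replicates 1 and 2 were lowest, replicate 3 lay between them and the other groups, and no library overlapped. The change was -1.31 ± 0.19 (adjusted p = 0.000421). Alpha-class Gsta3 read 128, 163 and 151 CPM with olive oil, 155, 148, 123 and 111 with CCl4, 118, 158, 169.6 and 169 with EtOH, and 58.3, 51.9 and 84.4 with CCl4+EtOH. All CCl4+EtOH libraries were below all others, with a change of -1.18 ± 0.19 (adjusted p = 0.000672).

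Of the 7 mu-class genes, Gstm1, Gstm2, Gstm3 and Gstm7 fell and Gstm4, Gstm5 and Gstm6 did not pass. Gstm1 read 383, 333 and 594 CPM with olive oil, 401, 323, 338 and 368 with CCl4, 390.0, 490.1, 389 and 343 with EtOH, and 229, 161 and 235 with CCl4+EtOH. The CCl4+EtOH libraries lay below all others and olive oil replicate 3 stood highest, with a change of -1.07 ± 0.21 (adjusted p = 0.0018). Gstm7 read 10.1, 9.32 and 12.2 CPM with olive oil, 13.8, 10.9, 6.62 and 7.78 with CCl4, 10.3, 11.9, 7.36 and 9.51 with EtOH, and 5.72, 4.84 and 5.44 with CCl4+EtOH. Its CCl4+EtOH libraries were again lowest, with a change of -0.98 ± 0.24 (adjusted p = 0.00703). Gstm3 read 4.99, 4.28 and 9.92 CPM with olive oil, 8.50, 4.34, 5.43 and 4.44 with CCl4, 5.90, 6.53, 5.89 and 7.29 with EtOH, and 3.58, 2.54 and 3.84 with CCl4+EtOH. Its call of -0.94 ± 0.32 (adjusted p = 0.0333) depended on olive oil replicate 3, without which the change was -0.48 (adjusted p = 0.225). It was also lost without CCl4+EtOH replicate 1 (0.0704) or 2 (0.130), with only the compared groups in the fit (0.0957), without EtOH replicates 1 to 3 (0.0653) and in limma-voom (0.0637).

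Theta-class Gstt2 read 158, 177 and 153 CPM with olive oil, 235, 205, 154 and 167 with CCl4, 180.3, 139, 179.8 and 131 with EtOH, and 89.0, 97.2 and 100.1 with CCl4+EtOH. CCl4+EtOH libraries were below all others, and the change was -0.77 ± 0.16 (adjusted p = 0.00246). The pi-class gene Gstp1 read 79.0, 90.3 and 91.5 CPM with olive oil, 77.4, 74.5, 52.3 and 70.0 with CCl4, 99.0, 133, 114 and 111 with EtOH, and 67.9, 52.7 and 50.0 with CCl4+EtOH. CCl4+EtOH lay below olive oil and EtOH but overlapped CCl4, and EtOH lay above every other group. Its change was -0.61 ± 0.15 (adjusted p = 0.00713) against olive oil and -1.01 ± 0.14 (adjusted p = 0.000421) against EtOH. Without EtOH replicates 1 to 3 the latter was -0.98 (adjusted p = 0.0486), and with the adrenal marker level in the fit -1.05 (adjusted p = 0.0245). Its neighbour Gstp2 read 44.3, 49.6 and 54.1 CPM with olive oil, 43.8, 44.9, 30.2 and 39.2 with CCl4, 55.4, 76.2, 61.0 and 56.9 with EtOH, and 40.5, 29.5 and 30.3 with CCl4+EtOH. The order of the groups was the same, and the change of -0.56 ± 0.17 (adjusted p = 0.0175) was lost without olive oil replicate 3 (0.0654) or CCl4+EtOH replicate 2 (0.0822).

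Omega-class Gsto1, which reduces dehydroascorbate, was the transferase that rose. It read 42.2, 43.6 and 30.7 CPM with olive oil, 52.8, 54.0, 35.1 and 36.4 with CCl4, 47.1, 47.5, 44.0 and 44.8 with EtOH, and 58.8, 53.8 and 68.6 with CCl4+EtOH. The CCl4+EtOH libraries lay above olive oil and EtOH and overlapped CCl4. The change was 0.64 ± 0.17 (adjusted p = 0.0115), and without olive oil replicate 3 the adjusted p was 0.0541. Gstk1, the kappa enzyme of mitochondria and peroxisomes, read 65.4, 74.0 and 68.0 CPM with olive oil, 78.9, 67.8, 60.3 and 59.8 with CCl4, 83.0, 74.9, 68.4 and 71.8 with EtOH, and 25.4, 27.0 and 49.3 with CCl4+EtOH. It was lower in each CCl4+EtOH library than in any other, with a change of -1.03 ± 0.20 (adjusted p = 0.00203). Reads of close copies such as Gstp1 and Gstp2, Gsta1 and Gsta2 or the mu-class genes may have been split between them, because no source used here says how they were counted, and their separate values are uncertain.

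**Figure D4:**
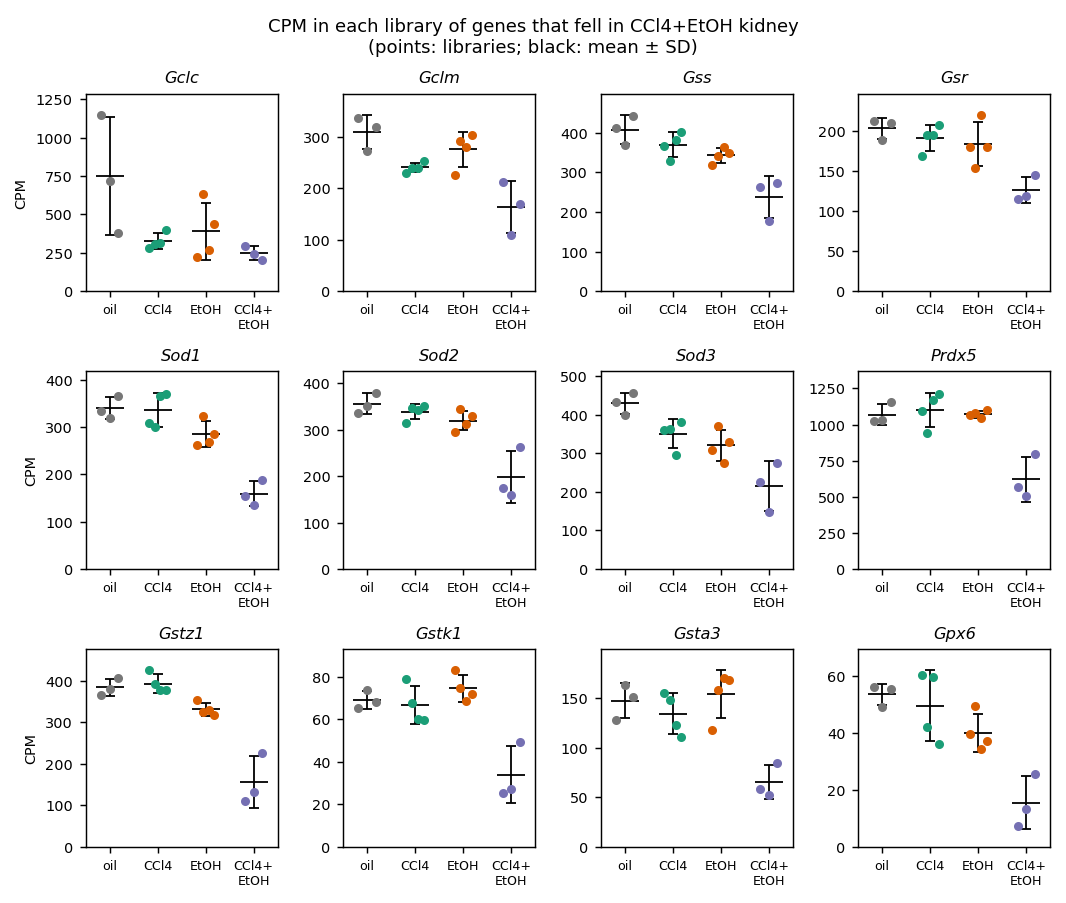
CPM (y axis, from 0) in each library by group (x axis, oil for olive oil) for 12 genes that fell in CCl4+EtOH against olive oil, with points for libraries and black marks for mean ± SD. In each panel the 3 CCl4+EtOH points lie below the 3 olive oil points, and the olive oil points of Gclc spread from 380 to 1147 CPM.

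Peroxiredoxins reduce peroxides through cysteines. Of the 9 peroxiredoxin, thioredoxin and sulfiredoxin genes, 6 fell and Prdx2, Prdx4 and Srxn1 did not pass. Prdx5, found in mitochondria, peroxisomes and cytosol, read 1021, 1030 and 1155 CPM with olive oil, 1095, 939, 1167 and 1208 with CCl4, 1065, 1077, 1042 and 1100 with EtOH, and 564, 504 and 799 with CCl4+EtOH. These last 3 lay below every other library and replicate 3 was the highest of them. The change was -0.78 ± 0.16 (adjusted p = 0.00225). Prdx3, the mitochondrial peroxiredoxin, read 241, 262.7 and 254 CPM with olive oil, 250.1, 250.2, 255 and 257 with CCl4, 249, 256, 268 and 255 with EtOH, and 162, 149.8 and 217 with CCl4+EtOH. Here too no CCl4+EtOH library overlapped another group, with a change of -0.52 ± 0.11 (adjusted p = 0.00356) and an adjusted p of 0.0572 when only the compared groups were fitted.

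Txnrd1, the cytosolic thioredoxin reductase, read 249, 224 and 213 CPM with olive oil, 202, 203, 176 and 209 with CCl4, 165, 203, 243 and 242 with EtOH, and 192, 148 and 158 with CCl4+EtOH. The CCl4+EtOH libraries lay below olive oil and overlapped the others. The change of -0.46 ± 0.14 (adjusted p = 0.022) was lost without olive oil replicate 1 (0.0771), without CCl4+EtOH replicate 2 (0.0962) and with only the compared groups in the fit (0.0510). Smaller falls were those of Prdx1 at -0.46 ± 0.13 (adjusted p = 0.0125), Prdx6 at -0.33 ± 0.11 (adjusted p = 0.0336) and Txn1 at -0.28 ± 0.10 (adjusted p = 0.0344). All 3 calls were lost with only the compared groups in the fit, at 0.0839 for Prdx1, 0.128 for Prdx6 and 0.0985 for Txn1. They were also lost without CCl4+EtOH replicate 2 (0.056, 0.145 and 0.115) and without olive oil replicate 3 (0.0531, 0.154 and 0.0981). Without olive oil replicate 2 the calls of Prdx6 (0.0521) and Txn1 (0.0823) were lost. Prdx6 was further lost without CCl4+EtOH replicate 1 (0.0752) and without EtOH replicates 1 to 3 (0.0568), and Txn1 with upper-quartile scaling (0.0612) and with no filter on low counts (0.054). Prdx2 did not pass, at 0.02 ± 0.08 (adjusted p = 0.83), and its 14 libraries ran from 140 to 167 CPM.

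The summed proximal tubule markers were also low in CCl4+EtOH kidney, in replicate 3 only with Kap counted. Summed over 14 proximal tubule markers, olive oil libraries held 46110 to 54190 CPM, CCl4 libraries 43760 to 55250, EtOH libraries 29730 to 35200 and CCl4+EtOH libraries 12560, 9382 and 23750. Of the 14, 7 fell and none rose in CCl4+EtOH against olive oil, with a median log2 change of -0.997. Without Kap, an androgen-driven transcript that made up most of the sum with olive oil, the 13 others summed to 19930 to 23480 CPM with olive oil, 20520 to 24200 CPM with EtOH, and 7684, 7413 and 20480 CPM in CCl4+EtOH replicates 1 to 3. The EtOH libraries thus lay below olive oil with Kap in the sum and overlapped it without Kap. CCl4+EtOH replicates 1 and 2 lay below olive oil in both sums. Replicate 3 lay below olive oil with Kap and inside its range without Kap. All 26 genes that fell were below every olive oil library in replicate 3, which was itself part of the fit that called them. Of the 26 genes that fell, 17 had their highest CCl4+EtOH value in replicate 3. Gclc, Gclm, Gstm2, Gstm7, Gstp1, Gstp2, Prdx1, Txn1 and Txnrd1 did not. Without replicate 3, 35 of the 53 genes passed, among them all 33, and 7417 rather than 5706 of all genes did.

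Of the 9 macrophage markers tested, 8 rose, and the sum went from 229 to 337 CPM with olive oil to 599 to 855 CPM with CCl4+EtOH. Adgre1 is in the table under its older symbol Emr1, which is among the 9. The 9 loop, distal tubule and collecting duct markers summed to 8339 to 10070 CPM with olive oil and 5478 to 8403 CPM with CCl4+EtOH, and 3 of them fell. In bulk kidney, fewer cells of a type and less RNA per cell cannot be told apart. The part of these cell types in the changes was not tested. The adrenal cortex and medulla lists had no gene past the threshold in CCl4+EtOH against olive oil, nor did the neutrophil, T cell and adipocyte lists, and 1 of 6 hepatocyte markers rose.

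After CCl4 without ethanol, none of the 53 genes passed against olive oil in edgeR, DESeq2 or limma-voom, and edgeR called 0% of all genes. At an unadjusted p under 0.05, 4 of the 50 and 640 of all 16105 genes were counted. The median change of the 50 was -0.024, beside -0.001 over all genes.

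After EtOH, Mgst3 alone passed against olive oil, where 0.0807% of all genes rose and 0.0869% fell. Mgst3, a microsomal transferase and peroxidase that also serves lipid mediators, read 79.0, 85.6 and 75.4 CPM with olive oil, 94.5, 87.5, 88.2 and 80.9 with CCl4, 127, 128, 134 and 119 with EtOH, and 82.5, 87.8 and 119 with CCl4+EtOH. The EtOH libraries lay above olive oil and CCl4, and CCl4+EtOH replicate 3 came just under the lowest of them. The change was 0.67 ± 0.11 (adjusted p = 0.0273). EtOH replicate 4, in which adrenal cortex markers summed to 13.1 CPM, held 119 CPM of Mgst3. That library stood apart in neutrophil markers, which summed to 188 CPM against 1.76 to 33.9 CPM in the other libraries. The call was lost when the adrenal marker level entered the fit (change 0.56, adjusted p = 0.896) and without EtOH replicates 1 to 3 (change 0.58, adjusted p = 0.895), where the 1 EtOH library left takes its spread from the other groups.

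The Mgst3 call also depended on single libraries. Its adjusted p was 0.113, 0.0818 and 0.129 without olive oil replicates 1, 2 and 3. It was 0.0698, 0.0542 and 0.112 without EtOH replicates 1, 2 and 3, and 0.0509 without CCl4 replicate 2.

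In a wider set of genes the EtOH libraries stood apart from olive oil, and of these only Mgst3 passed the test. For 13 of the 50, all 4 EtOH libraries lay above all 3 olive oil libraries, and for 4 (Gss, Gstz1, Prdx4 and Sod3) all lay below. Over all genes tested the shares were 5.2% and 6.69%, against 26% and 8% here. The 13 were Cbr3, Ephx1, Gpx3, Gsta1, Gsta2, Gstm5, Gsto1, Gstp1, Gstp2, Mgst2, Mgst3, Nfe2l2 and Srxn1. Mgst2 is among them on 10, 4, 11 and 3 counts with EtOH against 2, 1 and 3 with olive oil. At an unadjusted p under 0.05, 16 of the 50 and 1679 of all genes were counted. DESeq2 called 5 of the 50 and 350 of all genes, and limma-voom 3 and 223, where edgeR called 27 of all genes.

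Gsta1, Gsta2 and Gpx3 are described further although the naming rule did not take them, and were chosen after their values were seen. Gsta2, an alpha-class transferase, read 87.0, 135 and 175 CPM with olive oil, 211, 202, 119.9 and 137 with CCl4, 247, 249.7, 427 and 279.6 with EtOH, and 119.8, 115 and 172 with CCl4+EtOH. The EtOH libraries lay above all others and replicate 3 was the highest, while CCl4+EtOH overlapped olive oil. The change was 1.19 ± 0.28 (adjusted p = 0.112) with EtOH over olive oil and -1.15 ± 0.28 (adjusted p = 0.00788) with CCl4+EtOH over EtOH. The values of Gsta1, which shares much of its sequence, were 22.3, 33.0 and 43.6 CPM with olive oil, 53.6, 50.6, 29.8 and 38.1 with CCl4, 62.5, 63.3, 114 and 66.5 with EtOH, and 31.1, 28.4 and 44.9 with CCl4+EtOH. They had the same order of groups, with 1.21 ± 0.29 (adjusted p = 0.112) and -1.14 ± 0.29 (adjusted p = 0.00907) in the same comparisons. The calls against EtOH were lost without EtOH replicates 1 to 3, at -1.06 (adjusted p = 0.115) for Gsta2 and -0.95 (adjusted p = 0.135) for Gsta1. With the adrenal marker level in the fit the adjusted p was 0.11 for Gsta2 and 0.146 for Gsta1, and without CCl4+EtOH replicate 2 it was 0.0523 for Gsta1.

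Gpx3, the peroxidase that kidney secretes into plasma, read 18437, 22620 and 20023 CPM with olive oil, 22246, 22765, 18520 and 20483 with CCl4, 27352, 26758, 27745 and 28829 with EtOH, and 10905, 12692 and 23840 with CCl4+EtOH. EtOH libraries lay above all others, CCl4+EtOH replicates 1 and 2 lay below all others, and replicate 3 was above the olive oil libraries. The change was 0.44 ± 0.24 (adjusted p = 0.566) with EtOH over olive oil and -0.81 ± 0.24 (adjusted p = 0.019) with CCl4+EtOH over EtOH. The latter was lost without EtOH replicates 1 to 3 (-0.88, adjusted p = 0.181), with the adrenal marker level in the fit (0.126) and with only the compared groups (0.111). It was lost too without CCl4+EtOH replicate 1 (0.0919) or replicate 2 (0.0838).

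**Figure D5:**
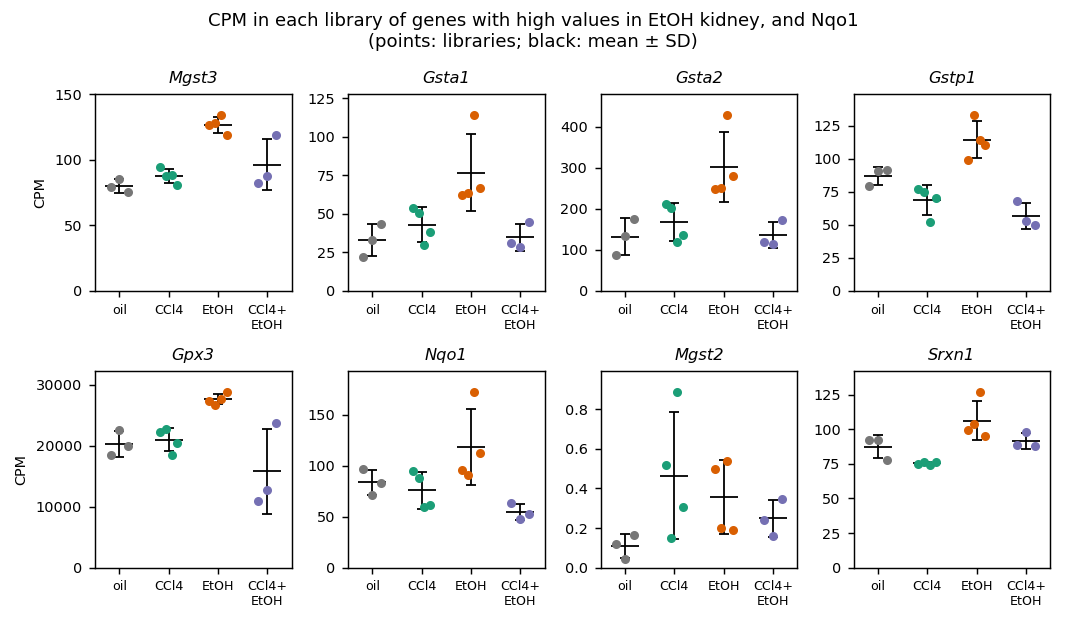
CPM (y axis, from 0) in each library by group (x axis, oil for olive oil) for 7 genes whose EtOH libraries all lay above olive oil, and for Nqo1; points are libraries and black marks are mean ± SD. The 4 EtOH points of Gsta2 lie from 247 to 427 CPM, above every other library. Its 3 CCl4+EtOH points lie from 115 to 172 CPM, inside the olive oil spread. The points of Mgst2 rest on 3 to 11 counts with EtOH and 1 to 3 with olive oil.

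Set against EtOH, CCl4+EtOH kidney had 29 of the 50 lower and 3 higher, where 16.2% of all genes fell and 18.1% rose, and the median change was -0.53 beside 0.001 over all genes. Akr1b8, Gpx7 and Prdx4, the peroxiredoxin of the endoplasmic reticulum, were the 3 that rose. Gstt1, Gstt3, Gsta1, Gsta2, Gpx3, Nqo1, Mgst3 and Prdx4 passed here and not against olive oil. With the adrenal marker covariate 8 of the 50 passed, and 4 did without EtOH replicates 1 to 3, where 1 EtOH library is left and all genes that passed numbered 335 rather than 5514. The 4 were Akr1b8, Gsta3, Gstp1 and Sod1, which also passed with the covariate, as did Gstk1, Gstp2, Gstz1 and Prdx5. Against CCl4, 18 fell and 8 rose, where 16.2% and 18.7% of all genes did, with a median of -0.34 beside 0.021. Srxn1, which repairs overoxidised peroxiredoxins, read 74.1 to 76.2 CPM with CCl4, below the 77.7 to 92.1 CPM of the olive oil libraries. Its CCl4+EtOH libraries, at 87.7 to 98.0 CPM, overlapped olive oil. Srxn1 rose against CCl4 alone of the 3 comparisons, at 0.28 ± 0.10 (adjusted p = 0.0364). That call was lost without any single CCl4 library (0.0634 to 0.0703), without CCl4+EtOH replicate 1 (0.0616) or 2 (0.14), and with only the CCl4 libraries of the longer schedule (0.108). Each pair of these comparisons shares the CCl4+EtOH libraries, so their calls are not independent.

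The difference of differences asked whether CCl4+EtOH over EtOH differed from CCl4 over olive oil. CCl4 replicates 3 and 4 had 4 more weeks of CCl4 and no olive oil library had them, so schedule enters this difference. The difference passed for 12 of the 50. Akr1b8 was the 1 on the higher side, where 5.49% of all genes lay, and 11 were on the lower side, where 3.63% lay. The median of the 50 was -0.42, beside 0.002 over all genes. The 5 with the smallest p were Sod1 at -0.82 ± 0.18 (adjusted p = 0.0181), Gstt2 at -0.95 ± 0.21 (adjusted p = 0.0196), Gsta3 at -1.11 ± 0.25 (adjusted p = 0.0213), Gstz1 at -1.12 ± 0.26 (adjusted p = 0.0216) and Akr1b8 at 2.42 ± 0.57 (adjusted p = 0.0241). None of the 12 passed with the adrenal marker covariate, without EtOH replicates 1 to 3, without olive oil replicate 1 or without CCl4+EtOH replicate 2. There were 3 calls without olive oil replicate 2, 1 without CCl4+EtOH replicate 1 and 21 without CCl4+EtOH replicate 3. Calls over all genes in these fits were 539, 340 and 4881, beside 1468 with all libraries. Without CCl4 replicate 1 there were 5, and without CCl4 replicate 2 or 4 or EtOH replicate 3 or 4 there were 7.

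Other genes of the pathway, outside the 53, are given from lists chosen by function. In CCl4+EtOH against olive oil, 18.9% of all genes tested rose and 16.6% fell, and the counts of each list stand beside these shares. Of 21 other glutathione genes, 3 rose (Ggt5, Slc7a11 and Mgst1) and 8 fell. Slc7a11, Mgst1, Abcc1, Abcc2 and Pgd are also in the list of NRF2 targets, so the lists are not separate. Ggct, which breaks down gamma-glutamyl peptides, changed by -1.71 ± 0.20 (adjusted p = 0.000111), and Ggt1, which splits glutathione outside the cell at the tubule brush border, by -1.51 ± 0.26 (adjusted p = 0.000831). Its relative Ggt5 changed by 0.96 ± 0.14 (adjusted p = 0.000317), and Hagh, which releases glutathione in methylglyoxal clearance, by -0.70 ± 0.12 (adjusted p = 0.00107). Of 20 other NRF2 targets, 4 rose (Slc7a11, Cbr1, Abcc3 and Mgst1) and 3 fell (Osgin1, Me1 and Ugdh), close to the shares over all genes. Their median log2 change was -0.018, beside 0.024 over all genes. Me1, which makes NADPH, changed by -1.59 ± 0.17 (adjusted p = 5.9e-05), and Ugdh, which supplies glucuronic acid, by -1.12 ± 0.17 (adjusted p = 0.000503). The export pump Abcc3 changed by 1.85 ± 0.25 (adjusted p = 0.000236) and the microsomal transferase Mgst1 by 0.86 ± 0.18 (adjusted p = 0.0029).

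Of 9 NRF2 partners and regulators, Maff rose and 4 fell. Maff, a small MAF partner, changed by 1.97 ± 0.50 (adjusted p = 0.00817) and Sqstm1, which sequesters Keap1, by -0.58 ± 0.13 (adjusted p = 0.0044). Cul3, the ubiquitin ligase scaffold that works with Keap1, changed by -0.40 ± 0.10 (adjusted p = 0.00609), and Fbxo22, a ligase subunit, by -0.39 ± 0.10 (adjusted p = 0.00677). With only the compared groups in the fit the adjusted p was 0.0585 for Cul3 and 0.0503 for Fbxo22. Of 12 other redox enzymes, 2 rose, the phagocyte oxidase genes Cybb and Ncf1, and 7 fell. Catalase, Cat, changed by -1.09 ± 0.22 (adjusted p = 0.00214) and the methionine sulfoxide reductase Msrb1 by -0.94 ± 0.14 (adjusted p = 0.000479). The mitochondrial thioredoxin Txn2 changed by -0.63 ± 0.12 (adjusted p = 0.00156) and its reductase Txnrd2 by -0.57 ± 0.12 (adjusted p = 0.00282). With EtOH against olive oil, where 0.0807% of all genes rose and 0.0869% fell, Mgst1, Cbr1 and Abcc3 rose and no gene of these lists fell. All 3 calls were lost without EtOH replicates 1 to 3, at 1.56 (adjusted p = 0.2) for Mgst1, 1.499 (adjusted p = 0.556) for Cbr1 and 0.81 (adjusted p = 0.979) for Abcc3. With the adrenal marker level in the fit the adjusted p was 0.243, 0.859 and 0.9999. The calls of Cbr1 and Abcc3 were also lost without any single olive oil library (0.12 to 0.172 and 0.0874 to 0.145) and without any single CCl4 library (0.053 to 0.0753 and 0.0577 to 0.0753). Cbr1 was further lost without EtOH replicate 1 (0.0868) or 3 (0.112) and CCl4+EtOH replicate 1 (0.0514) or 2 (0.0504), and Abcc3 without EtOH replicates 1, 2 and 3 in turn (0.113, 0.0802 and 0.114).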

How the data were processed

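The authors deposited raw read counts per gene symbol, with no normalization, and GSNAP and mm9 are named per the submitters' processing notes. The counting program, annotation, strand use and treatment of reads that fit several genes are given in no source used here. The table has 14 columns for the 15 samples. Of 23893 rows, 27 held a date in place of a symbol (0.168% to 0.209% of a library's counts) and were left out. No pair of libraries of a group agreed within sampling noise. With separate mice as labelled, p-values reflect differences from mouse to mouse.

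Counts were tested in R 4.3.3 with edgeR 4.0.16: filterByExpr by group, TMM scaling, and the robust quasi-likelihood F test fitted to all 4 groups (14 libraries), and p was adjusted by Benjamini-Hochberg over 16105 genes. The SE was taken as the absolute log2 change over the root of F. CPM use TMM-scaled libraries. Alternatives were other scalings and filters, other fits, DESeq2 1.42.0, limma-voom (limma 3.58.1), an adrenal covariate, and each library left out. The pipeline was tested on simulated data. The members, role groups, marker and pathway lists were chosen with earlier results of these data known. Values in every library are given for Nfe2l2 and Keap1, for up to 3 genes of a role and direction past the threshold against olive oil with a mean of at least 1 CPM, by size of change, and for the 5 smallest p of the interaction. From each pathway list the 4 genes with the smallest p are given.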

Additional observations from a re-analysis of the deposited data

Results flagged for a closer look

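In 2 of the 100 groups of 4 libraries examined (50 tested genes, in the CCl4 and the EtOH group), 1 library stood apart from the others by a gap past Dixon's critical value, a gap that chance gives in about 1 of 20 groups. Cbr3 read 12.4 CPM and Gsta1 read 114 CPM in EtOH replicate 3, each the highest of its group. The same library held the highest sum of adrenal cortex markers, 1283 CPM. Their part in these values was not tested.

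For 12 of the genes the CCl4+EtOH change relative to EtOH differed from the CCl4 change relative to olive oil, by edgeR's test of the difference itself, and none of the 12 passed without EtOH replicates 1 to 3. The difference was 2.42 on the log2 scale for Akr1b8. It was -1.52 for Gsta1, -1.49 for Gsta2 and -1.11 for Gsta3. Gstz1 stood at -1.12, Gstk1 at -1.09 and Gstt2 at -0.95. Prdx5 stood at -0.83 and Sod1 at -0.82. Prdx3 at -0.55, Gpx1 at -0.54 and Mgst3 at -0.53 were the smallest. For Gsta1, Gsta2 and Mgst3 the EtOH libraries lay above all 3 olive oil libraries.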

How the results depend on the processing

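Against olive oil, the 33 calls of CCl4+EtOH became 26 with only the compared groups in the fit and 32 to 35 in the other alternatives with all libraries of the 2 groups, and 25 to 35 with each library left out. Against CCl4 the 26 calls ranged from 21 to 29, and from 20 to 29 with each library left out. For CCl4+EtOH against EtOH, 32 calls became 8 with the adrenal covariate and 4 without EtOH replicates 1 to 3, which held adrenal transcripts, and 23 to 35 with each library left out. The 12 calls of the interaction became 0 in both adrenal alternatives and 24 in limma-voom, and 0 to 21 with each library left out. The single call of EtOH against olive oil became 0 in both adrenal alternatives, 5 in DESeq2 and 3 in limma-voom, and 0 to 1 with each library left out. For CCl4 against olive oil all gave 0. Calls over all genes moved as well. For the interaction they went from 1468 to 6 with the adrenal covariate, 4810 in limma-voom and 4881 without CCl4+EtOH replicate 3. For EtOH against olive oil they went from 27 to 0 with the covariate, 350 in DESeq2 and 223 in limma-voom. For CCl4+EtOH against EtOH they went from 5514 to 1143 with the covariate. The cause was not tested. No change named turned its direction. In CCl4+EtOH against olive oil, 35 of 49 changes passed in every alternative. The 49 hold the 33 calls and, from each pathway list, the 4 genes with the smallest p in this comparison. Of these pathway genes, only Cul3 and Fbxo22 were lost in some alternative. Among the 33, Gpx1, Gpx7, Gpx8, Gstm3, Gsto1, Gstp2, Keap1, Prdx1, Prdx3, Prdx6, Txn1 and Txnrd1 were each lost in some alternative. With no pathway genes added, 4 of 32 calls against EtOH and 18 of 26 against CCl4 passed in every alternative. No paired analysis was possible because the sample numbers in the titles are not shared between groups. Low counts limit Gpx7, Gstm3, Gsto2 and Mgst2, and 3 or 4 libraries a group limit every comparison.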

Other observations

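Gpx3 alone took between 1.23% and 2.78% of a library's counts. Its share was 2.62% to 2.78% in the 4 EtOH libraries, and 1.23%, 1.502% and 2.55% in CCl4+EtOH replicates 1 to 3. Without Gpx3, the other genes of the 53 together took 0.724%, 0.662% and 0.745% in the CCl4+EtOH libraries, where replicate 3 was not apart, and 0.855% to 0.971% in the other 11.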
